A study of Mus musculus with 7 samples.

Results

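Cadherins and protocadherins are calcium-dependent adhesion proteins of the cell surface. The 90 genes described here are the rows of the authors' deposited table whose symbol is Cdh followed by a number or starts with Pcdh, out of 17732 genes in that table. They fall into 20 numbered cadherins, 12 non-clustered protocadherins and 58 clustered protocadherins, the last made up of 14 Pcdha, 22 Pcdhb and 22 Pcdhg genes. The table compares the medial prefrontal cortex of wild-type male 129SvEv mice of 2 groups, named CFC (3 libraries) and SC (4 libraries) in the labels, taken after a remote memory was retrieved. The labels do not spell out the names, give no age, and do not say whether a library is 1 animal or a pool. The question the design poses is which transcripts differ between these groups. Each gene has a mean normalized count over the 7 libraries, a log2 fold change and the standard error (SE) of that change, and values of single libraries were not analysed here. The side that is the numerator is not stated, so a difference is called positive or negative after its deposited sign.

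Classical cadherins join cells by binding their like on the facing membrane, and their tails hold catenins that reach the actin cytoskeleton; type I and type II differ in how the outermost domains dock. Non-clustered protocadherins of the delta families bind weakly in the same like-to-like manner and pass signals to actin regulators such as the WAVE complex, and several mark sets of cortical neurons. Clustered protocadherins lie in tandem on 1 chromosome: in the Pcdha and Pcdhg clusters each gene has its own promoter and first exon, spliced to constant exons that all genes of the cluster share, while Pcdhb genes have a single coding exon. A neuron uses a small set of these promoters, which gives it a surface identity used in dendrite self-avoidance, and the C-type genes at the ends of the Pcdha and Pcdhg clusters are used more widely.

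Of the members, 1 was called between the groups at an adjusted p-value under 0.05 in the authors' Wald test. This member was Pcdh17 (ENSMUSG00000035566, GRCm38 chromosome 14, 84443563 to 84539002, plus strand), a delta-2 protocadherin known from axon contacts and presynaptic terminals. RefSeq promoters on GRCm38.p6 were matched for 22 of the 90 genes. The 250 bases before the start of Pcdh17 (chr14:84443313-84443562, plus strand) are shown because it is the single member past the threshold. Those of Pcdh9 (chr14:93890680-93890929, minus strand), a delta-1 protocadherin on the same chromosome, are shown beside them because it had the smallest p-value among the other members. Both are written 5′ to 3′, and capitals mark matches, on either strand, to GGGCGG (the GC box) or to TGACG (a 5-base form of the cAMP response element); these motifs do not overlap here.
Pcdh17: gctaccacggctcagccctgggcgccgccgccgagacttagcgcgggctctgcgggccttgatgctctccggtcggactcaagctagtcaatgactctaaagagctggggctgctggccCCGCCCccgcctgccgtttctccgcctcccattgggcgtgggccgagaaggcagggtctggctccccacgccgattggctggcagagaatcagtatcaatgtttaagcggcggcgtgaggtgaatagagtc
Pcdh9: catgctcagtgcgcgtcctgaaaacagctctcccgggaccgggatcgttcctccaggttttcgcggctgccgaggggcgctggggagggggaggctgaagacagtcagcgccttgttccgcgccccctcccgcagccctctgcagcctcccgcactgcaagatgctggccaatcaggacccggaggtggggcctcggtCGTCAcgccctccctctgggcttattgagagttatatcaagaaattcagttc
The Pcdh17 stretch held 1 GC box and no TGACG, and that of Pcdh9 held 1 TGACG and no GC box. GGGCGG was found in 32.7% and TGACG in 17.8% of 32851 promoter stretches of the same length, so neither is rare. Pcdh17 had 21 CpG dinucleotides and Pcdh9 had 18, beside a median of 6 over all these stretches and of 10 over the 25 stretches of members. Members that were not called had more, such as Cdh22 (30), Pcdh18 (23) and Pcdh10 (22).

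Pcdh17 had a mean normalized count of 3622 and a log2 fold change of 0.34 ± 0.07 (SE) in the authors' deposited table. This is a 1.26-fold difference, with a 95% interval from 1.15 to 1.38 computed from the authors' deposited table. Its adjusted p-value was 9.07e-04 there (Wald test, adjusted by the authors over their genes), and by unadjusted p-value it was number 12 of 17729 genes. The difference was small but about 5 times its error, since the Wald statistic was 4.93 in the authors' deposited table. Tested against changes of up to 1.2-fold in place of 0, the call was lost, with an adjusted p-value of 1. In bulk tissue, a difference in the number of cells that express a gene and one in the RNA per cell cannot be told apart.

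An adjusted p-value was given for 77 of the 90 members, and the other 13 had mean counts under the authors' filter. At an adjusted p-value under 0.05, 1 of the 77 members was called, beside 0.513% of all 13060 genes with an adjusted p-value. That member was positive, as were 0.368% of those genes. Of the members, 10 had an unadjusted p-value under 0.05, 9 positive and 1 negative. Over all genes tested the share was 8.10%, with 4.56% positive and 3.54% negative. The median log2 fold change was 0.05 over the 77 members and -0.0017 over all genes tested, both computed from the authors' deposited table. Of the 77 members, 56 had a 95% interval that excluded changes of 1.5-fold or more in either direction, so for these the data bound the difference; for all genes this share was 87.9%.

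Some facts of the whole series stand beside these results. Of the markers, all 8 oligodendrocyte genes were positive (median log2 fold change 1.203, all 8 at an unadjusted p-value under 0.05 and 0 called), as were all 8 listed deep cortical layer genes (0.61, 5 called) and all 5 striatal genes (0.76, 1 called), computed from the authors' deposited table. All 6 upper-layer genes were negative (-0.29, 2 called), while those of neurons in general (4 genes, 0.0002) and of excitatory neurons (4 genes, -0.02, with 1 called, Camk2a, which was negative) had medians near 0, computed from the authors' deposited table. Of the 4 general neuron genes, 1 (Rbfox3, at -0.17) had an unadjusted p-value under 0.05 in the authors' Wald test. All 4 endothelial genes (-0.17) and all 4 microglial genes (-0.13) were negative and none was called by the authors' Wald test, with 2 and 1 of them at an unadjusted p-value under 0.05. Medians for 5 astrocyte genes (-0.0081) and 4 oligodendrocyte precursor genes (0.0075) lay near 0, with no gene called and 1 and 0 of them at an unadjusted p-value under 0.05. Of 4 choroid plexus markers, 3 were listed and 1 had an adjusted p-value, with no call. That gene, Kl, had a log2 fold change of 0.59 (unadjusted p-value 0.0075, authors' Wald test). No listed marker had a mean count of 0, Folr1 was not among the genes listed, and the cortical glutamate transporter Slc17a7 averaged 34713 normalized counts in the authors' deposited table. Cadherins are used by many of these cells, and the part of the markers in the results on Pcdh17 and the other members was not tested.

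**Figure D1:**
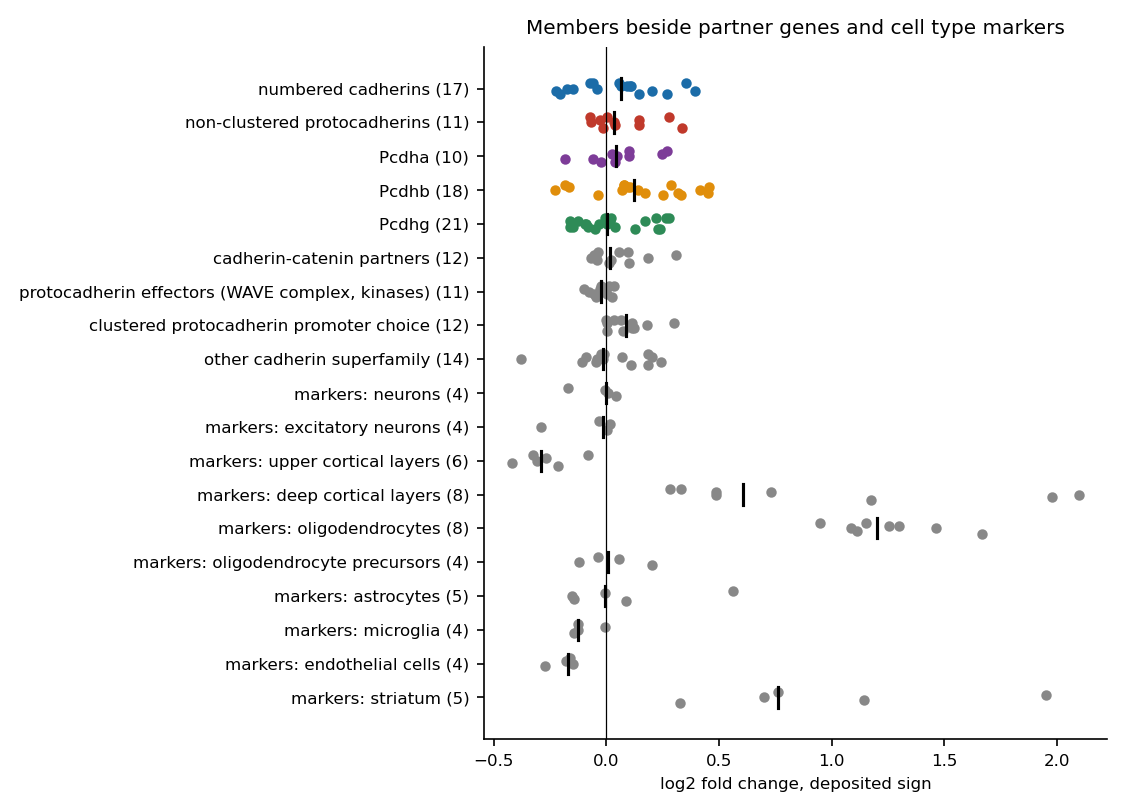
Log2 fold changes with the deposited sign (x axis) of the members by class (coloured) and of partner genes and cell type markers (grey); each point is a gene with an adjusted p-value, each black bar a median, and the number of genes stands in brackets. The 5 classes have medians from 0.0046 to 0.12, while the oligodendrocyte markers have a median of 1.203 and the deep-layer markers one of 0.61.

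Among the non-clustered protocadherins, 11 of 12 had an adjusted p-value, 7 positive and 4 negative, and their median was a log2 fold change of 0.03 computed from the authors' deposited table. Pcdh9 (ENSMUSG00000055421; chromosome 14, 93013410 to 93890679, minus strand) came next after Pcdh17, with a mean normalized count of 2768 and a log2 fold change of 0.28 ± 0.10 (SE; adjusted p-value 0.252) in the authors' deposited table. Its 95% interval, from 0.09 to 0.47, did not reach 0, but it did not pass when adjusted over all genes. Pcdh19, the X-linked delta-2 gene of a female-limited epilepsy, had a log2 fold change of 0.15 ± 0.08 (SE; adjusted p-value 0.685) in the authors' deposited table. The other members of the delta-2 family lay close to 0. Pcdh10, which takes part in synapse elimination and had the highest mean count of all members (8169), had a log2 fold change of -0.03 ± 0.06 (SE) in the authors' deposited table. Pcdh8, also called arcadlin, which neuronal activity induces and which draws N-cadherin off the synapse, had a log2 fold change of -0.02 ± 0.12 (SE) in the authors' deposited table. For Pcdh18 the log2 fold change was -0.07 ± 0.13 (SE) in the authors' deposited table. Adjusted p-values of Pcdh8, Pcdh10 and Pcdh18 were each 0.999 in the authors' deposited table. The 95% interval of Pcdh10 ran from -0.15 to 0.09 and that of Pcdh8 from -0.26 to 0.22.

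The delta-1 gene Pcdh1 had a mean normalized count of 6724 and a log2 fold change of 0.0011 ± 0.07 (SE) in the authors' deposited table. Its 95% interval ran from -0.13 to 0.13. Pcdh7 and Pcdh11x, the other delta-1 genes, had log2 fold changes of 0.14 ± 0.27 (SE) and -0.07 ± 0.20 (SE) in the authors' deposited table. Outside the delta families, Pcdh15, a tip-link protein of hair cells that oligodendrocyte precursors also express, had a log2 fold change of 0.04 ± 0.10 (SE) in the authors' deposited table. Pcdh20, a gene of layer 4 neurons, had a log2 fold change of 0.03 ± 0.13 (SE) in the authors' deposited table. Pcdh12, an endothelial protocadherin, had a mean count of 5.89, under the filter, and its value of -1.05 ± 0.77 (SE) in the authors' deposited table leaves even the sign unresolved. Pcdh8, Pcdh17, Pcdh20 and Pcdh9 follow each other in this order on chromosome 14, between 79766775 and 93890679 on GRCm38. Between Pcdh17 and Pcdh9 thus lies Pcdh20, whose 95% interval ran from -0.22 to 0.29.

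**Figure D2:**
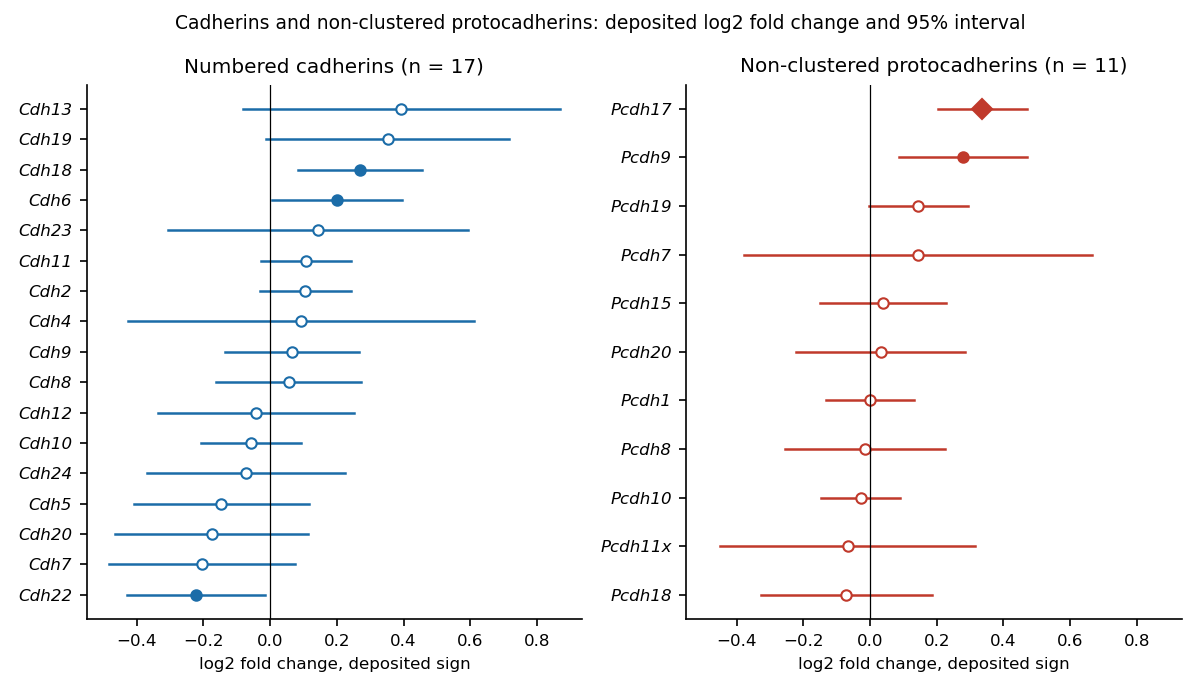
Deposited log2 fold change (x axis) of each numbered cadherin and non-clustered protocadherin with an adjusted p-value; lines are 95% intervals, filled symbols have an unadjusted p-value under 0.05 and the diamond marks an adjusted p-value under 0.05. Pcdh17, at 0.34, is the diamond, and Cdh4, Cdh13 and Pcdh7 have the widest intervals.

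No numbered cadherin was called at an adjusted p-value under 0.05 in the authors' Wald test, and 3 had an unadjusted p-value under 0.05. Of the 20, 17 had an adjusted p-value, 10 positive and 7 negative, and their median was a log2 fold change of 0.06 computed from the authors' deposited table. The type I genes are represented by N-cadherin (Cdh2), the main cadherin of excitatory synapses, by R-cadherin (Cdh4) and by the muscle cadherin Cdh15. Cdh2 had a mean normalized count of 2350 and a log2 fold change of 0.11 ± 0.07 (SE; adjusted p-value 0.856) in the authors' deposited table. Its 95% interval ran from -0.03 to 0.24. Cdh4 had a log2 fold change of 0.09 ± 0.26 (SE) in the authors' deposited table, and its 95% interval ran from -0.43 to 0.61. Cdh15 averaged 27.8 normalized counts in the authors' deposited table and was under the filter. E-cadherin (Cdh1), Cdh3 and Cdh17 were not among the genes the authors listed.

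All 13 type II cadherins had an adjusted p-value, 6 positive and 7 negative, and several of them have a patchy expression that outlines cortical areas and layers. Cdh18 (ENSMUSG00000040420; GRCm38, chromosome 15, 22549022 to 23474418, plus strand) had a mean normalized count of 607 and a log2 fold change of 0.27 ± 0.10 (SE; adjusted p-value 0.252) in the authors' deposited table. Cdh6 (ENSMUSG00000039385; chromosome 15, 13028701 to 13173675, minus strand) was also positive, at 0.20 ± 0.10 (SE; adjusted p-value 0.623) in the authors' deposited table. Cdh22 (ENSMUSG00000053166; chromosome 2, 165111507 to 165234853, minus strand) was negative, at -0.22 ± 0.11 (SE; adjusted p-value 0.581) in the authors' deposited table. The unadjusted p-values of these 3 were 0.0045, 0.0433 and 0.0346 as the authors' deposited table gives them, and none passed over all genes. Cdh8 and Cdh11, which mark sets of cortical neurons, had log2 fold changes of 0.06 ± 0.11 (SE) and 0.11 ± 0.07 (SE) in the authors' deposited table. Their 95% intervals ran from -0.16 to 0.27 for Cdh8 and from -0.03 to 0.24 for Cdh11.

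Some type II genes belong to cells other than neurons. VE-cadherin (Cdh5), the adhesion protein of endothelial junctions, had a log2 fold change of -0.15 ± 0.13 (SE; adjusted p-value 0.960) in the authors' deposited table. The 4 endothelial markers had a median of -0.17, next to this value. Cdh19, known from glia of the Schwann cell lineage, had a mean normalized count of 127 and a log2 fold change of 0.35 ± 0.19 (SE; adjusted p-value 0.688) in the authors' deposited table. The listed numbered cadherins outside type I and type II are Cdh13, Cdh16, Cdh23 and Cdh26. Cdh13 (T-cadherin), which is anchored by a lipid and has no tail for catenins, had a mean normalized count of 2757 in the authors' deposited table. It had the highest log2 fold change of the 17 numbered cadherins with an adjusted p-value, 0.39, in the authors' deposited table. Its SE was 0.24 and its adjusted p-value 0.821 in the authors' deposited table, with a 95% interval from -0.08 to 0.87. Cdh23, the partner of Pcdh15 in the hair cell, had a mean count of 62.1 and a log2 fold change of 0.14 ± 0.23 (SE) in the authors' deposited table. Cdh16 and Cdh26 averaged 1.30 and 2.70 normalized counts in the authors' deposited table and were under the filter.

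The spread behind the errors differed among the members. Each standard error was divided by a running median taken over genes of similar mean count, so that 1 means an ordinary spread for the abundance. The median of this ratio was 1.07 over the 77 members, but it was 4.30 for Pcdh7, 3.88 for Cdh13, 3.06 for Cdh4 and 2.43 for Pcdh11x. These were the 4 members above 2, a level passed by 1.85% of all genes tested. All 4 are numbered cadherins or delta-1 protocadherins, and none of the 49 clustered genes with an adjusted p-value passed it. These classes differ in abundance: the 4 had mean counts from 644 to 2891, and the 58 clustered genes a median of 135. Whether the ratio passes 2 as readily at low counts was not tested, so no difference between classes is drawn from it. Pcdh17 was at 1.12 and Pcdh9 at 1.57. The striatal markers had a median ratio of 3.33 and the oligodendrocyte markers one of 6.73, and whether they vary over the same libraries as these 4 members was not tested.

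**Figure D3:**
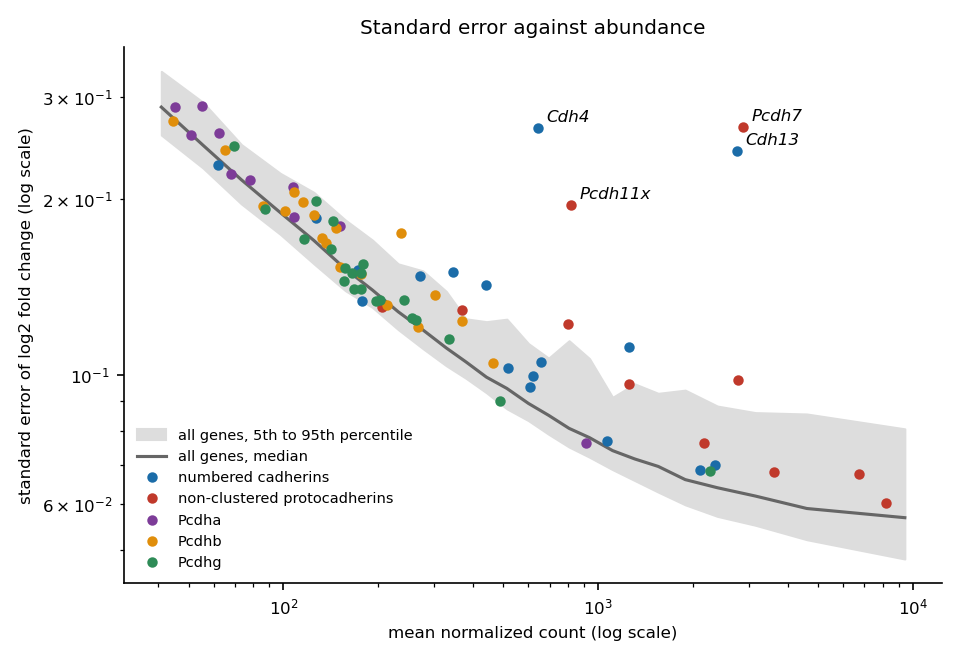
Standard error of the log2 fold change (y axis, log scale) against the mean normalized count (x axis, log scale) for the 77 members with an adjusted p-value, coloured by class; the band and line are the 5th to 95th percentile and the median of all 13060 genes. Pcdh7, Cdh13, Cdh4 and Pcdh11x lie well above the band, and the clustered genes follow the line.

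Counts of clustered genes depend on which exons they own. In GENCODE M21 the 14 Pcdha genes shared between 48.6% and 93.0% of their exon bases with other genes, and the 22 Pcdhg genes between 31.5% and 100%. The constant exons are part of this, and so are overlapping gene models outside the family. Such models include Gm38225 for Pcdha4, Gm10544 for Pcdha11, and Gm26672 for Pcdhga10 and Pcdhga11. Overlap was taken on either strand. Whether reads in such stretches were counted depends on the authors' annotation, strand setting and counting rule, which are not given. Pcdhga10 had no exon base of its own but still averaged 2.26 normalized counts in the authors' deposited table, so some reads were counted for it. Pcdha4 had 0.40 kilobases of its own and averaged 3.14 normalized counts, and Pcdha11 had 1.27 kilobases and averaged 4.07, in the authors' deposited table. With so little exon of their own, low counts of Pcdhga10 and Pcdha4 are not read here as low expression. For its own exon Pcdha11 was low, at 3.21 normalized counts per kilobase, and Pcdhga11, with 1.26 kilobases, averaged 155. Pcdhb1 had 2.59 kilobases and shared none, and it averaged 2.99 normalized counts in the authors' deposited table. Near-identical copies can also divide reads. Of the stretches of 50 bases within each gene's own exons, the median share also found in another gene was 3.33% for Pcdhb, 12.5% for Pcdha and 1.03% for Pcdhg. The highest share was 25.5%, in Pcdha7, and the share was 0 in Pcdhac2 and Pcdhac1, so reads may be divided between genes to a different degree in each.

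No clustered gene was called at an adjusted p-value under 0.05 in the authors' Wald test. Of the 49 with an adjusted p-value, 5 (10.2%) had an unadjusted p-value under 0.05, beside 8.10% of all genes tested. Those 5 were Pcdhb3, Pcdhb11, Pcdhb18, Pcdhb19 and Pcdhgc4, all positive, while 4.56% of all genes tested were positive at that threshold. In the Pcdhb cluster, 18 of 22 genes had an adjusted p-value, of which 14 were positive and 4 negative, and their median was a log2 fold change of 0.12 computed from the authors' deposited table. The 4 Pcdhb genes are 22.2% of those tested, beside 4.56% of all genes that were positive at that threshold; the Pcdhb genes are close relatives on 1 stretch of chromosome, so this share is a description. Pcdhb18 had a mean normalized count of 137 and a log2 fold change of 0.42 ± 0.17 (SE) in the authors' deposited table. Pcdhb3 and Pcdhb11 had log2 fold changes of 0.45 ± 0.19 (SE) and 0.45 ± 0.19 (SE) in the authors' deposited table. Pcdhb19, with the third highest mean count of the cluster (303), followed at 0.32 ± 0.14 (SE) in the authors' deposited table. Their adjusted p-values lay between 0.406 and 0.467 in the authors' deposited table, far from the threshold.

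Pcdhb22, which had the highest mean normalized count of the cluster (464), had a log2 fold change of 0.07 ± 0.10 (SE) in the authors' deposited table. Pcdhb17, at 368, had one of 0.11 ± 0.12 (SE) in the authors' deposited table. The lowest of the 18 Pcdhb genes with an adjusted p-value was Pcdhb9, at -0.23 ± 0.27 (SE) in the authors' deposited table. Pcdhb18 and Pcdhb19 are neighbours, and Pcdhb3 and Pcdhb11 stand apart from them and from each other. Between these, Pcdhb6 and Pcdhb7 were negative, at -0.18 ± 0.17 (SE) and -0.17 ± 0.13 (SE) in the authors' deposited table. Positive values thus did not form 1 run along the cluster, as the plot in chromosome order shows. Of the 4 negative genes with an adjusted p-value, Pcdhb6, Pcdhb7 and Pcdhb9 lay near each other, with Pcdhb8, which had none, among them. The remaining negative gene, Pcdhb15 (-0.04), lay among the positive genes from Pcdhb10 to Pcdhb22.

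**Figure D4:**
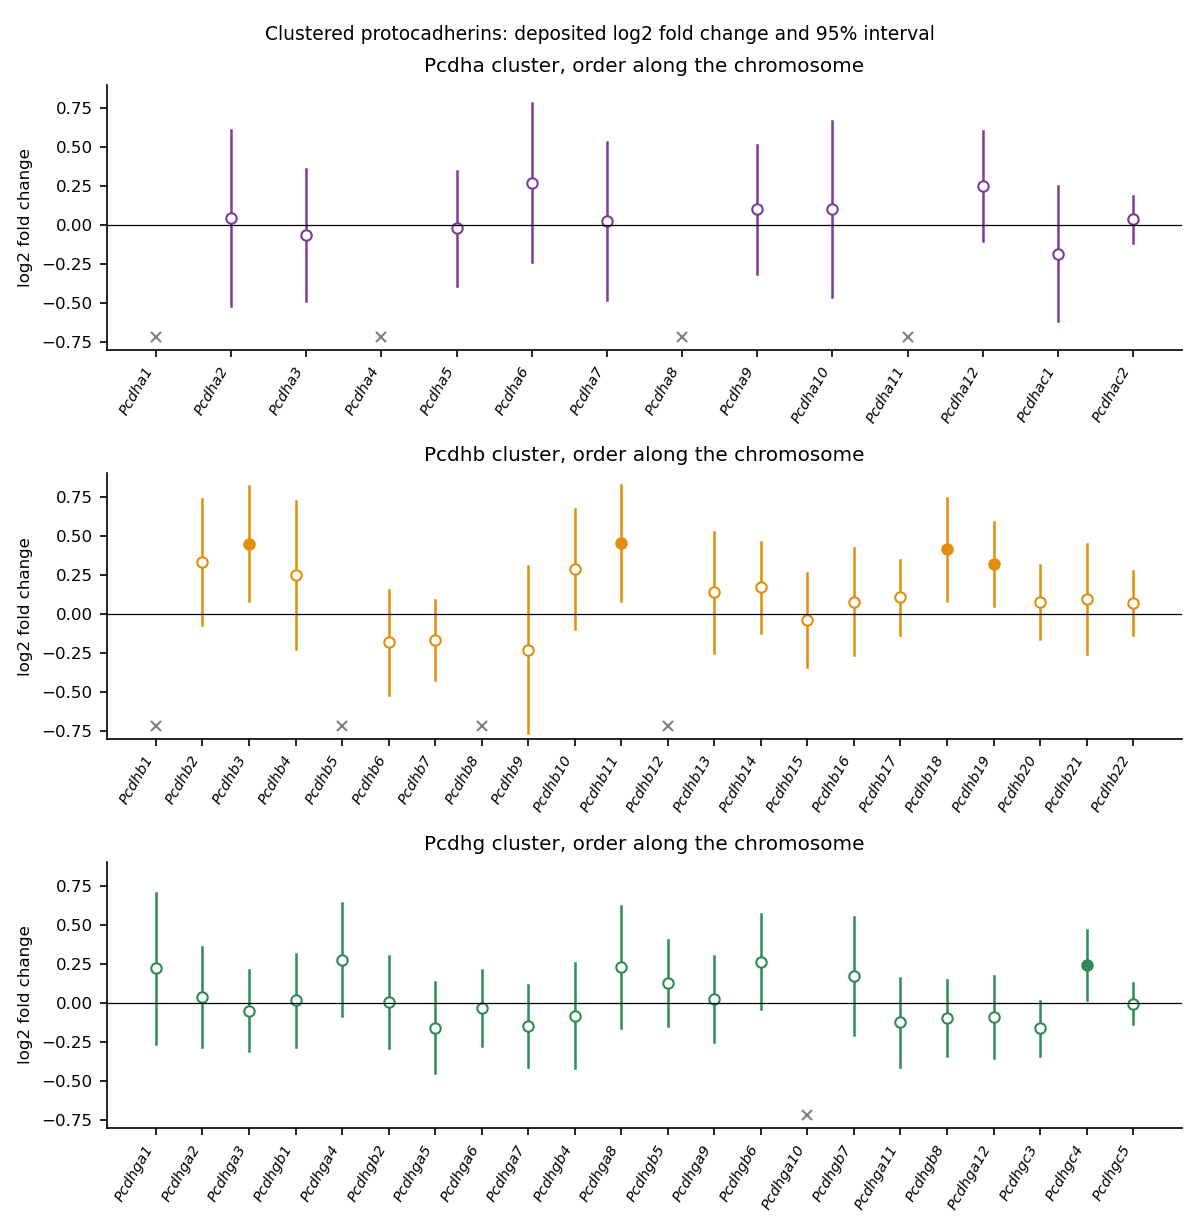
Deposited log2 fold change (y axis) of the clustered protocadherins in their order along the chromosome, with 95% intervals; filled circles have an unadjusted p-value under 0.05 and crosses mark genes without an adjusted p-value, whose values are not drawn. The 4 filled Pcdhb circles lie between 0.32 and 0.45 and the filled Pcdhg circle is Pcdhgc4 at 0.24.

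In the Pcdha cluster 10 of 14 genes had an adjusted p-value, 7 positive and 3 negative, and their median was a log2 fold change of 0.04 computed from the authors' deposited table, and none had an unadjusted p-value under 0.05. Pcdhac2, the C-type gene needed for the tiling of serotonin axons, had a mean normalized count of 917 and a log2 fold change of 0.04 ± 0.08 (SE) in the authors' deposited table. Its 95% interval, from -0.11 to 0.19, was the narrowest of those 10. Pcdhac1, the other C-type gene, had a mean count of 68.1 and a log2 fold change of -0.18 ± 0.22 (SE) in the authors' deposited table. The alternate genes with the highest mean counts, Pcdha12 and Pcdha5, had log2 fold changes of 0.25 ± 0.18 (SE) and -0.02 ± 0.19 (SE) in the authors' deposited table. The highest of the 10 with an adjusted p-value was Pcdha6, at 0.27 ± 0.26 (SE) in the authors' deposited table.

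In the Pcdhg cluster 21 of 22 genes had an adjusted p-value, 11 positive and 10 negative, and their median was a log2 fold change of 0.0046 computed from the authors' deposited table; it was -0.0046 once genes averaging under 100 normalized counts were left out. The 3 C-type genes did not share a sign. Pcdhgc4, on which the survival of cortical interneurons depends, had a mean normalized count of 335 and a log2 fold change of 0.24 ± 0.11 (SE; adjusted p-value 0.589) in the authors' deposited table. Pcdhgc3 had a mean normalized count of 488 and a log2 fold change of -0.16 ± 0.09 (SE; adjusted p-value 0.745) in the authors' deposited table. Pcdhgc5, a partner of GABA-A receptors, had a mean normalized count of 2264 and a log2 fold change of -0.0046 ± 0.07 (SE) in the authors' deposited table. Among the alternate genes, Pcdhga4 had the highest log2 fold change, 0.28 ± 0.18 (SE) in the authors' deposited table. The 12 Pcdhga genes, of which 11 had an adjusted p-value, had a median of -0.03, and the 7 Pcdhgb genes one of 0.02, computed from the authors' deposited table.

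Levels were compared between genes per length, as the mean normalized count per kilobase of exon that no other gene overlaps. The measure takes reads in shared exon as not counted, which is not known. On this scale the median level was 201 for the non-clustered protocadherins, 69.1 for Pcdhg, 68.0 for the numbered cadherins, 32.1 for Pcdhb and 25.2 for Pcdha. Pcdh1 had the highest level, 764, followed by Pcdh10 at 519 and Pcdhgc5 at 492. Pcdh9 was at 408, Pcdh7 at 345, Pcdhac2 at 303, Cdh2 at 291 and Pcdh17 at 279. Among clustered genes the C-type Pcdhgc5, Pcdhac2 and Pcdhgc3 (268) led, and the other 53 reached 124 at most, in Pcdhga11. That value rests on the 1.26 kilobases that Pcdhga11 owns. The value of Pcdhgc3 likewise rests on 1.82 kilobases. Per kilobase of all exons Pcdhga11 was at 32.7, under Pcdhb17 at 79.0, and Pcdhgc3 was at 88.8, not far above Pcdhb17. The C-type genes were not uniform, since Pcdhgc4 was at 96.5 and Pcdhac1 at 26.6. Summed over genes, the 5 C-type genes had a mean count of 4073 and the other 53 clustered genes one of 7042, computed from the authors' deposited table. Errors of these levels over libraries are unknown, and per kilobase of all exons the medians of Pcdha and Pcdhg were 10.98 and 33.3.

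**Figure D5:**
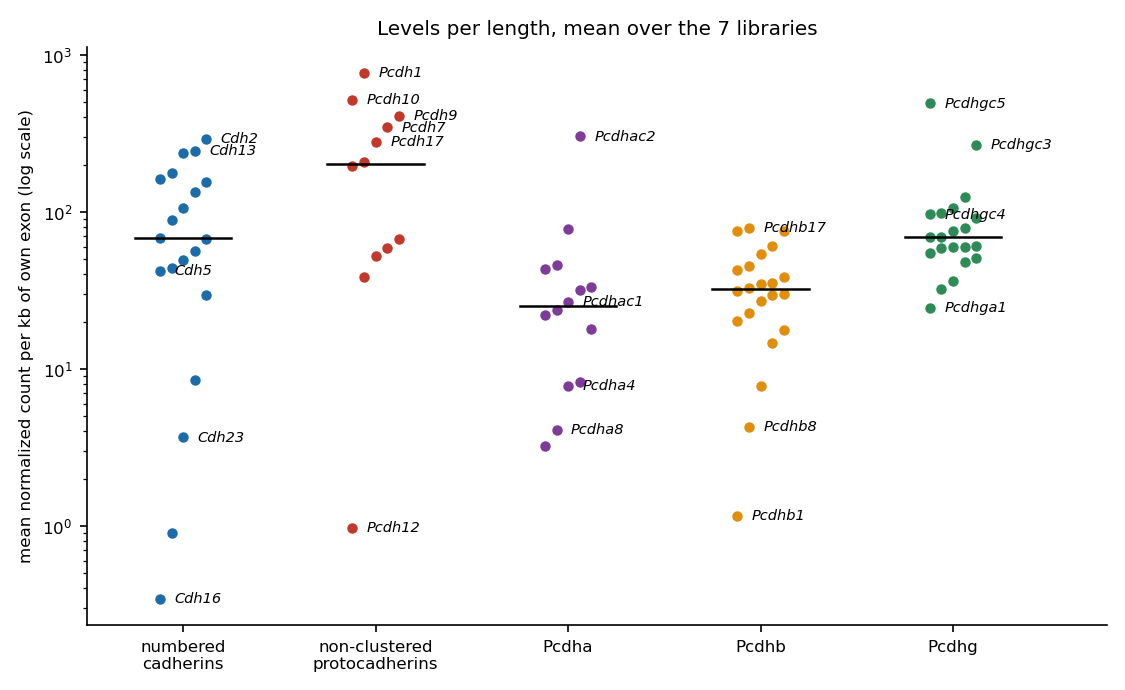
Level of each member as mean normalized count per kilobase of exon that no other gene overlaps (y axis, log scale), by class; bars are medians, and Pcdhga10, which has no such exon, is not drawn. The C-type genes Pcdhgc5, Pcdhac2 and Pcdhgc3 lie above the other clustered genes, and Pcdh1 is the highest of all at 764.

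Genes that work with these proteins were described from lists of partners. Of 13 cadherin and catenin partners, 12 had an adjusted p-value and none was called. In the authors' Wald test, 2 of the 12 (16.7%) had an unadjusted p-value under 0.05, beside 8.10% of all genes tested. The remaining partner, the alpha-catenin gene Ctnna3, averaged 34.4 normalized counts, under the filter, and had a log2 fold change of 0.86 ± 0.34 (SE; unadjusted p-value 0.0109) in the authors' deposited table. Plakoglobin (Jup), a catenin of the same family as beta-catenin, had a mean normalized count of 928 and a log2 fold change of 0.31 ± 0.09 (SE; adjusted p-value 0.0889) in the authors' deposited table. Pkp4, a p120-catenin relative, had a log2 fold change of 0.18 ± 0.07 (SE; adjusted p-value 0.359) in the authors' deposited table. Beta-catenin itself (Ctnnb1) had a log2 fold change of 0.06 ± 0.07 (SE), and delta-catenin (Ctnnd2) one of -0.04 ± 0.05 (SE), in the authors' deposited table. The 95% intervals of Ctnnb1 and Ctnnd2 ran from -0.08 to 0.19 and from -0.14 to 0.06.

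The 11 effectors of protocadherins, which are WAVE complex subunits and kinases, had a median log2 fold change of -0.02 computed from the authors' deposited table. None was called or had an unadjusted p-value under 0.05 in the authors' Wald test. Cyfip1 and Cyfip2, the WAVE subunits that bind protocadherin tails, had log2 fold changes of -0.10 ± 0.07 (SE) and -0.08 ± 0.06 (SE) in the authors' deposited table. Of 13 genes for promoter choice in the clusters (CTCF, cohesin and silencing factors), 12 had an adjusted p-value, 11 positive and 1 negative, and none was called. In the authors' Wald test, 1 of the 12 (8.33%) had an unadjusted p-value under 0.05, beside 8.10% of all genes tested. The gene under it was the cohesin subunit Smc1a, at 0.18 ± 0.07 (SE; adjusted p-value 0.389) in the authors' deposited table. Rad21, another cohesin subunit, had a log2 fold change of 0.11 ± 0.06 (SE) in the authors' deposited table. Ctcf, which anchors promoters of the clusters to their enhancers, had a log2 fold change of 0.03 ± 0.06 (SE) in the authors' deposited table. Of 20 other genes of the cadherin superfamily (Fat, Dachsous, Celsr, calsyntenin, desmosomal and related genes), 14 had an adjusted p-value, 6 positive and 8 negative, and none was called. In the authors' Wald test, 1 of the 14 (7.14%) had an unadjusted p-value under 0.05, beside 8.10% of all genes tested. The gene under it was Dchs1, at 0.24 ± 0.11 (SE) in the authors' deposited table, while calsyntenin 1 (Clstn1) was at -0.11 ± 0.06 (SE).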

How the data were processed

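Polyadenylated RNA was sequenced from 3 CFC and 4 SC libraries, made per the labels' protocols from 100 ng of RNA each. Per the submitters' processing notes, Trimmomatic, Subread and DESeq2 were used with mm10; their roles, versions, the annotation, the strand setting and the depth of each library are not given in the sources used here. Per the file headers, the authors' table gives a mean normalized count (a signal averaged over libraries), a log2 fold change with its standard error, a Wald statistic (a score) and p-values before and after adjustment. The Wald statistic equalled the quotient of log2 fold change and standard error in all 17732 genes, and adjusted p-values began at a mean count of 34.9.

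The planned count test needed values per library, so the authors' adjusted p-value under 0.05 was the test. Normal 95% intervals were computed from the deposited standard errors (Python 3.11.15, scipy 1.17.1). The code was run on simulated data drawn with these same errors, which cannot show whether the errors themselves are right for so few libraries. Replicates are separate libraries; no label says that they came from separate animals, so p-values measure the spread between these libraries. The table was read as CFC against SC because the labels hold no other groups. Exons came from GENCODE M21 (GRCm38), which held all 90 genes; the running median of standard errors spanned 401 genes. Named were members past either p-value threshold, the 3 highest mean counts and the extreme log2 fold changes of each class, and a fixed set; Cdh4, Cdh15, Cdh16, Cdh23, Cdh26, Pcdh7, Pcdh11x, Pcdha4, Pcdha7, Pcdha11, Pcdhb1, Pcdhb6, Pcdhb7, Pcdhga10 and Pcdhga11 were added after their values were seen. Members and lists were chosen with earlier results of these data known. Alternatives were other thresholds, adjustments, filters and a 1.2-fold null.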

Additional observations from a re-analysis of the deposited data

How the results depend on the processing

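No paired analysis was possible because the table holds no values per library, and for the same reason the planned fits that leave out a replicate or use edgeR or other normalizations were not run. Whether 1 library decides a result is therefore unknown, and so is the depth of each library. At a threshold of 0.1 the call of Pcdh17 held by construction. It also kept its side of the threshold with a Bonferroni adjustment, with no filter on the mean count (adjusted p-value 0.00111) and when adjusted over the listed genes (8.21e-04). Against a null of a 1.2-fold change it was lost (adjusted p-value 1), leaving 0 members and 0 non-clustered protocadherins. Of the members, 10 had an unadjusted p-value under 0.05, made up of 3 numbered cadherins, 2 non-clustered protocadherins, 4 Pcdhb, 1 Pcdhg and 0 Pcdha genes. Outside the members, 3 partners and 1 other superfamily gene with an adjusted p-value were under it. With the threshold at 0.1, 1 partner (Jup) was called. Over all genes the 67 calls (48 positive) became 101 (68 positive) at a threshold of 0.1, 21 (17 positive) by Bonferroni, 2 (2 positive) against the 1.2-fold null and 1058 (596 positive) at an unadjusted p-value under 0.05; the stricter settings are so by construction. Median levels per kilobase fell from 25.2 to 10.98 for Pcdha and from 69.1 to 33.3 for Pcdhg when all exons were counted, since shared exons lengthen the models. Some class medians of the log2 fold change moved by over 1.5 times, each by less than 0.03. At mean counts of at least 100 that of Pcdha went from 0.04 to 0.07 and that of Pcdhg from 0.0046 to -0.0046. With all listed members that of the non-clustered protocadherins went from 0.03 to 0.02 and that of Pcdhg to -4.79e-06. No other alternative moved a count, median or level by over 1.5 times beyond those given here.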
